A study of Homo sapiens with 6 samples.

Results

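The genes described here encode the axon guidance families: semaphorins and their plexin receptors, ephrins and their Eph receptors, netrins and UNC5 receptors, and Slits and Robo receptors. They were chosen by gene symbol, with symbols holding a hyphen left out, which gave 56 of the 18398 genes in the count table. For 2 of the 56 the symbol is the only link: UNC50, which belongs to no guidance family, and UNC5CL, which resembles the UNC5 receptors in sequence but is not known as a netrin receptor. The other 54 genes are called guidance genes below. Family members without a row in the table are not covered, so family counts below may leave out genes of that family. A filter on low counts left 52 of the 56 genes for testing; NTN5, SLIT1, SLIT3 and UNC5D did not pass it.

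RNA sequencing was done on SUM159, an established line from a triple-negative breast cancer whose cells look mesenchymal. Control cells carried the empty lentiviral vector pLVX (3 libraries), and POGK cells were SUM159 cells stably overexpressing POGK from the same vector (3 libraries). POGK is a KRAB-domain protein derived from a pogo-like DNA transposon, and the study set out to find genes it regulates. The labels say neither whether the stable cells are a pool or a clone nor whether each replicate was its own culture, so p-values speak only of the spread among these libraries, which may be technical. In a bulk sample, a lower level in every cell and a smaller share of cells with the gene on cannot be told apart.

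Guidance receptors steer growing axons and also act in epithelia, vessels and tumours, where they change adhesion, cell shape and migration. Semaphorins bind plexins, the secreted class 3 members mostly through a neuropilin coreceptor. Ephrins and Eph receptors are both held at the membrane and signal on contact: ephrin-A ligands, on a lipid anchor, mainly bind EphA receptors, and ephrin-B ligands, which span the membrane, mainly bind EphB receptors. Netrins bind DCC and UNC5 receptors, and Slits bind Robo receptors.

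More of these genes were lower than higher in POGK cells. Of the 52 tested, 26 were lower, 13 were higher and 13 did not pass edgeR's quasi-likelihood test at a Benjamini-Hochberg adjusted p below 0.05. Over all 15889 genes tested, 33.3% were lower and 32.7% higher, 66.0% in all, so a call alone is common in this table. The guidance-named genes were lower in 50.0% of cases and higher in 25.0%. A fall of at least 2-fold was called for 16 of them, or 30.8%, against 12.7% of all genes, and a rise of that size for 5, against 9.58%. Among the falls, EPHA5, UNC5C, UNC5CL and ROBO2 passed the filter on low counts through their control libraries alone. ROBO4, among the rises, passed it through its POGK libraries alone. For such genes a large change partly follows from passing the filter, here as among all genes. The 3 libraries of each group did not overlap for 44 of the 52, beside 73.7% of all genes. Their median log2 fold change was -0.35, beside 0.0025 over all genes. Without UNC50 and UNC5CL, 25 of 50 guidance genes were lower and 12 higher.

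These counts depend in part on scaling. Counts were scaled between libraries with TMM, and levels are given as CPM, the count of a gene relative to the scaled library total. With library size alone, the median of all genes moved to 0.19 on the log2 scale, and called genes split 62.6% higher in place of 49.6%. The guidance-named genes then stood at 18 higher and 23 lower, with a median of -0.16. Directions below are relative to the TMM scale.

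The share of falls was set against genes of similar abundance. Among the 26 genes whose mean reached 10 CPM, 12 were lower (46.2%) and 6 higher, beside 33.9% and 38.9% of all genes at that level, and 11.5% fell at least 2-fold beside 7.61%. Among the 22 with a mean of 1 to 10 CPM, 12 were lower (54.5%) and 6 higher, beside 35.9% and 26.1%. In this lower band 11 of the 22 fell at least 2-fold, or 50.0%, beside 19.0% of all genes there. EPHA5 and UNC5C, which passed the filter through control libraries alone, are among those 11. So 11 of the 16 falls of at least 2-fold were in genes with these modest mean levels.

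**Figure D1:**
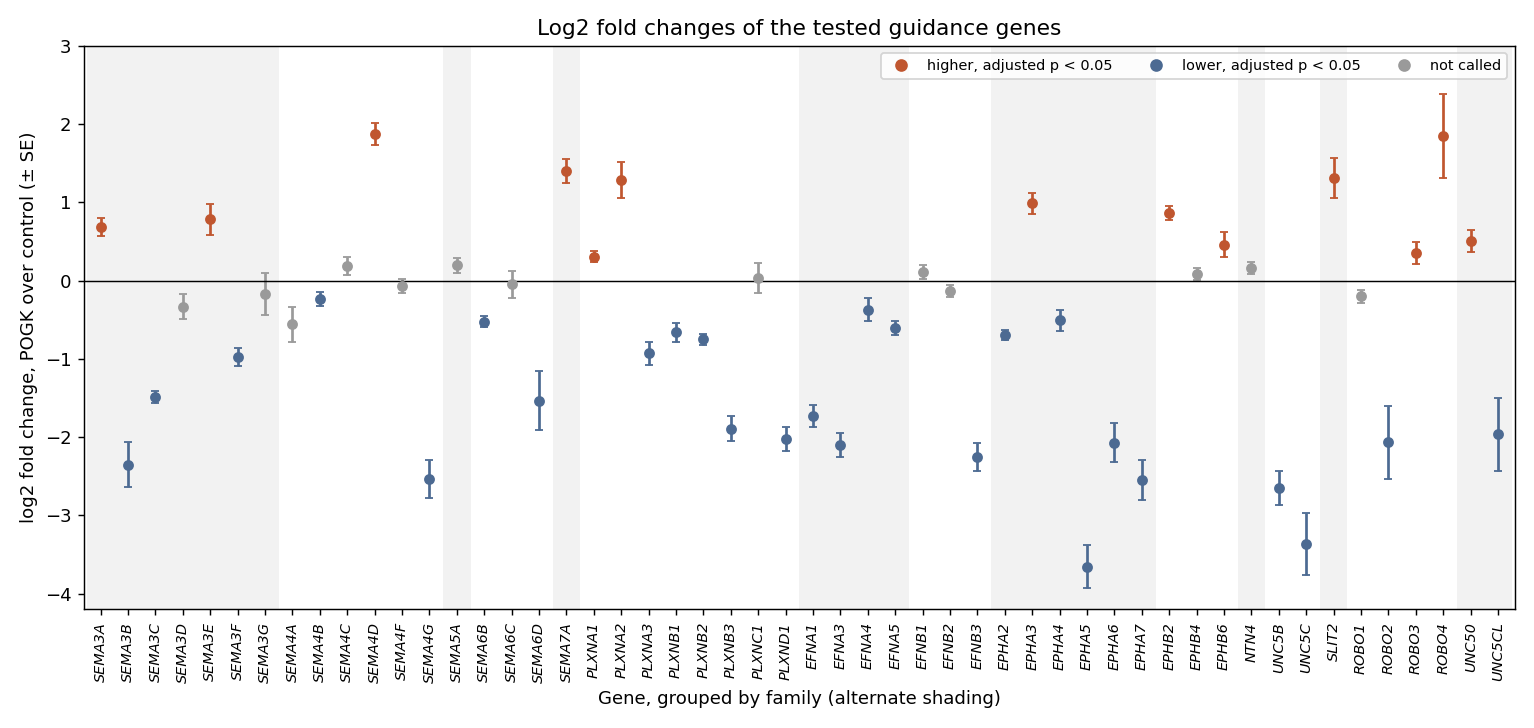
Log2 fold change of POGK over control cells for the 52 tested genes, grouped by family with alternate shading; points are edgeR estimates from 3 libraries a group, bars are standard errors, and colours mark the call at an adjusted p below 0.05. All 4 ephrin-A ligands, the B plexins and both tested UNC5 receptors lie below 0, while SEMA4D, ROBO4, SEMA7A, SLIT2 and PLXNA2 lie above 1.

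POGK itself checks the labels: it was at 62.6, 77.3 and 66.9 CPM in the control libraries and at 743, 781 and 780.3 CPM in the POGK libraries. Libraries held 27645789 to 33689230 counts. The control libraries were less alike than the POGK libraries: over the 48 tested guidance-named genes at a mean of at least 1 CPM, the median coefficient of variation was 14.1% in control and 4.85% in POGK cells, beside 12.0% and 3.67% over all genes at that level. Of these 48 genes, 22 had their highest control value in control replicate 3, 16 in control replicate 1 and 10 in control replicate 2, beside 28.0%, 35.0% and 37.1% of all genes at that level. The mesenchymal markers VIM and FN1 were abundant in both groups but fell, VIM from 5960 ± 791 to 3345 ± 30.2 CPM and FN1 from 3055 ± 424 to 962 ± 6.82 CPM (SD, n = 3 each). Of the 6 markers on that list, 4 fell and 2, AXL and CDH2, rose. EPCAM and ESR1 were at or below 0.23 CPM on average in each group (both too low to be tested). CDH1 and PGR were looked for but were not among the genes in the count table, which held no gene under 21 counts over the 6 libraries.

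Several members are known from blood vessels and nerve cells, so markers of those cells were read beside them. The summed level of the 6 endothelial markers found of 8 listed was 9.62 to 13.2 CPM in control and 8.73 to 10.02 CPM in POGK libraries, led by PECAM1 and ERG. Within it VWF fell 3.87-fold and PECAM1 1.31-fold while TEK rose 2.36-fold. CDH5 and CLDN5 were looked for but were not among the genes in the count table. Of the neural list, 3 of 7 genes were found, with sums of 238 to 278 CPM in control and 160 to 165 CPM in POGK libraries, nearly all from MAP2, which fell 1.58-fold. The other 2, TUBB3 and SYP, were at or below 1.98 CPM on average in each group. TUBB3 fell 1.84-fold and SYP rose 3.14-fold. Of the fibroblast or mural list, 4 of 6 genes fell: DCN, LUM, PDGFRB and ACTA2, by 2.43-fold to 2.95-fold. Its sum, 1081 to 1315 CPM in control and 1058 to 1087 CPM in POGK libraries, was carried by COL1A1, which did not pass. The epithelial sum was 430 to 492 and 483 to 489.9 CPM, with KRT18 higher and KRT8 and KRT19 lower. The leukocyte sum was 0.72 to 1.05 and 2.16 to 2.96 CPM, with PTPRC and ITGAM both higher, and the glial sum 0.67 to 1.13 and 0.22 to 0.66 CPM, with MBP lower. The part of these markers in the results below was not tested.

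Among secreted class 3 semaphorins, 3 of 7 fell, 2 rose and 2 did not pass the test. The most abundant semaphorin of control cells, SEMA3C (ENSG00000075223; hg38 chromosome 7, 80742538 to 80922359, minus strand), is a neuropilin ligand known to promote tumour cell migration. It was at 135, 117 and 129 CPM in the control libraries and at 44.5, 44.8 and 46.5 CPM in the POGK libraries. Every control library was far above every POGK library. SEMA3C fell 2.80-fold, with a log2 fold change of -1.49 (SE 0.07) and an edgeR adjusted p of 3.12e-06, the smallest among these 52 genes.

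SEMA3B and SEMA3F are neighbours on the short arm of chromosome 3, in a region often lost in cancers, and both are known as inhibitors of tumour growth. SEMA3B (50267558 to 50277546, plus strand) was at 4.19, 4.88 and 8.49 CPM in control and at 1.23, 1.22 and 0.98 CPM in POGK libraries. Control replicate 3 stood above the other controls, and the groups did not overlap. The log2 fold change of SEMA3B was -2.35 (SE 0.29; adjusted p = 0.000135), and -1.99 without control replicate 3. SEMA3F (50155045 to 50189075, plus strand), 78483 bases away, was at 31.4, 27.7 and 36.1 CPM in control and at 17.1, 15.1 and 16.3 CPM in POGK libraries. It fell 1.96-fold (log2 -0.97, SE 0.11; adjusted p = 0.000108), again with no overlap.

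A second pair of class 3 genes lies together on chromosome 7, SEMA3E and SEMA3A, 306638 bases apart, and both rose. SEMA3A, the classical repellent that collapses growth cones, was at 5.96, 6.73 and 7.14 CPM in control and at 10.2, 10.9 and 10.9 CPM in POGK libraries. This is a rise of 1.61-fold (adjusted p = 0.000683). SEMA3E, a ligand of plexin D1 that needs no neuropilin, was at 2.54, 1.79 and 1.85 CPM in control and at 2.91, 3.98 and 3.71 CPM in POGK libraries. The lowest POGK library of SEMA3E was close to the highest control library, and the gene rose 1.73-fold (log2 0.79, SE 0.20; adjusted p = 0.00679). SEMA3D, the next gene along, was at 2.08 ± 0.06 CPM in control and 1.65 ± 0.10 CPM in POGK cells (SD, n = 3 each) and did not pass at an adjusted p of 0.0962. SEMA3G had 12 to 21 counts per library, too few to show a difference of this size, and did not pass at an adjusted p of 0.628.

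Class 4 semaphorins span the membrane, and their tested members ranged from the largest rise to the largest fall of all semaphorins. SEMA4D, a ligand of plexin B1 known from immune and vessel biology, was at 1.77, 2.20 and 1.95 CPM in control and at 7.49, 7.16 and 7.15 CPM in POGK libraries. The libraries within each group were nearly alike. The rise was 3.66-fold (log2 1.87, SE 0.14; adjusted p = 1.14e-05), the largest among genes here with a mean of at least 1 CPM.

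SEMA4G moved the other way. Its values were 6.12, 3.64 and 5.26 CPM in control and 0.95, 0.72 and 0.91 CPM in POGK libraries, a fall of 5.79-fold (log2 -2.53, SE 0.24; adjusted p = 3.51e-05). Of its exon bases, 22.9% overlap MRPL43 on the other strand, and since the strand setting of the counting is not given in the sources used here, reads of the pair cannot be told apart. SEMA4B was called lower at 73.1 ± 8.40 against 62.3 ± 1.04 CPM (SD, n = 3 each), at an adjusted p of 0.0442, and lost that call in 9 of the 13 alternatives, leaving out any library but control replicate 2 among them. SEMA4A, SEMA4C and SEMA4F did not pass, with log2 fold changes of -0.56, 0.19 and -0.07 (adjusted p of 0.0536, 0.172 and 0.494). SEMA4A passed without control replicate 2, at a log2 fold change of -0.74, and with a filter of 1 CPM in 3 libraries, at -0.57; SEMA4C passed without control replicate 3, at 0.30, and with library size alone, at 0.38.

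Among the remaining semaphorins, SEMA7A rose and SEMA6B and SEMA6D fell. SEMA7A is tethered to the membrane by a lipid anchor and acts through integrins and plexin C1. It was at 3.66, 4.28 and 2.96 CPM in control and at 9.48, 10.2 and 9.24 CPM in POGK libraries, a rise of 2.65-fold (log2 1.40, SE 0.15; adjusted p = 6.45e-05). SEMA6D, which signals through plexin A1, was at 1.85, 1.53 and 3.57 CPM in control and at 0.50, 0.94 and 0.98 CPM in POGK libraries. Control replicate 3 was the highest by far, and the log2 fold change of -1.53 (SE 0.38; adjusted p = 0.00597) was -1.07 without it. SEMA6B, one of the more abundant semaphorins, fell 1.44-fold from 73.7 ± 3.43 to 51.3 ± 2.95 CPM (SD, n = 3 each; adjusted p = 0.000284). SEMA5A and SEMA6C had log2 fold changes of 0.20 and -0.05 and did not pass, at adjusted p-values of 0.104 and 0.816; with library size alone SEMA5A was called higher, at 0.39 and an adjusted p of 0.017.

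Of the 8 plexins in the table, the receptors of semaphorins, 5 fell, 2 rose and PLXNC1 did not pass. All 3 B plexins fell. PLXNB2, the most abundant plexin and a receptor of SEMA4C, was at 207, 182 and 192 CPM in control and at 118, 113 and 114 CPM in POGK libraries. That is a fall of 1.68-fold (adjusted p = 3.60e-05) with no overlap of the groups. PLXNB1, the receptor of SEMA4D, fell 1.58-fold from 43.4 ± 7.68 to 27.5 ± 1.19 CPM (SD, n = 3 each; adjusted p = 0.00127). PLXNB3 was at 12.6, 8.84 and 11.6 CPM in control and at 3.13, 2.99 and 2.73 CPM in POGK libraries, a fall of 3.71-fold (log2 -1.89, SE 0.16; adjusted p = 2.09e-05). In PLXNB3, 20.4% of exon bases are shared with SRPK3 on the same strand.

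PLXND1, a receptor known for guiding vessel growth, had the largest fall of the plexins. Its values were 23.2, 17.3 and 24.7 CPM in control and 5.56, 5.14 and 5.33 CPM in POGK libraries. The lowest control library was still more than 3 times the highest POGK library. PLXND1 fell 4.06-fold (log2 -2.02, SE 0.15; adjusted p = 1.08e-05).

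The A plexins, which pair with neuropilins for class 3 semaphorins, were divided. PLXNA3 fell 1.90-fold, from 118, 81.9 and 129.5 CPM in control to 59.2, 58.8 and 55.2 CPM in POGK libraries (adjusted p = 0.000591). PLXNA1 was at 57.4, 64.2 and 65.3 CPM in control and at 76.0, 75.2 and 80.5 CPM in POGK libraries, a small rise of 1.24-fold with separate groups (adjusted p = 0.00519). PLXNA2 rose 2.44-fold, and its controls were uneven. It was at 4.59, 9.64 and 5.79 CPM in control and at 17.3, 15.9 and 16.1 CPM in POGK libraries, with control replicate 2 the highest control. Its log2 fold change was 1.29 (SE 0.23; adjusted p = 0.00102), and 1.66 without control replicate 2. PLXNC1 stood at 2.47 ± 0.52 and 2.54 ± 0.24 CPM (SD, n = 3 each; adjusted p = 0.887).

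**Figure D2:**
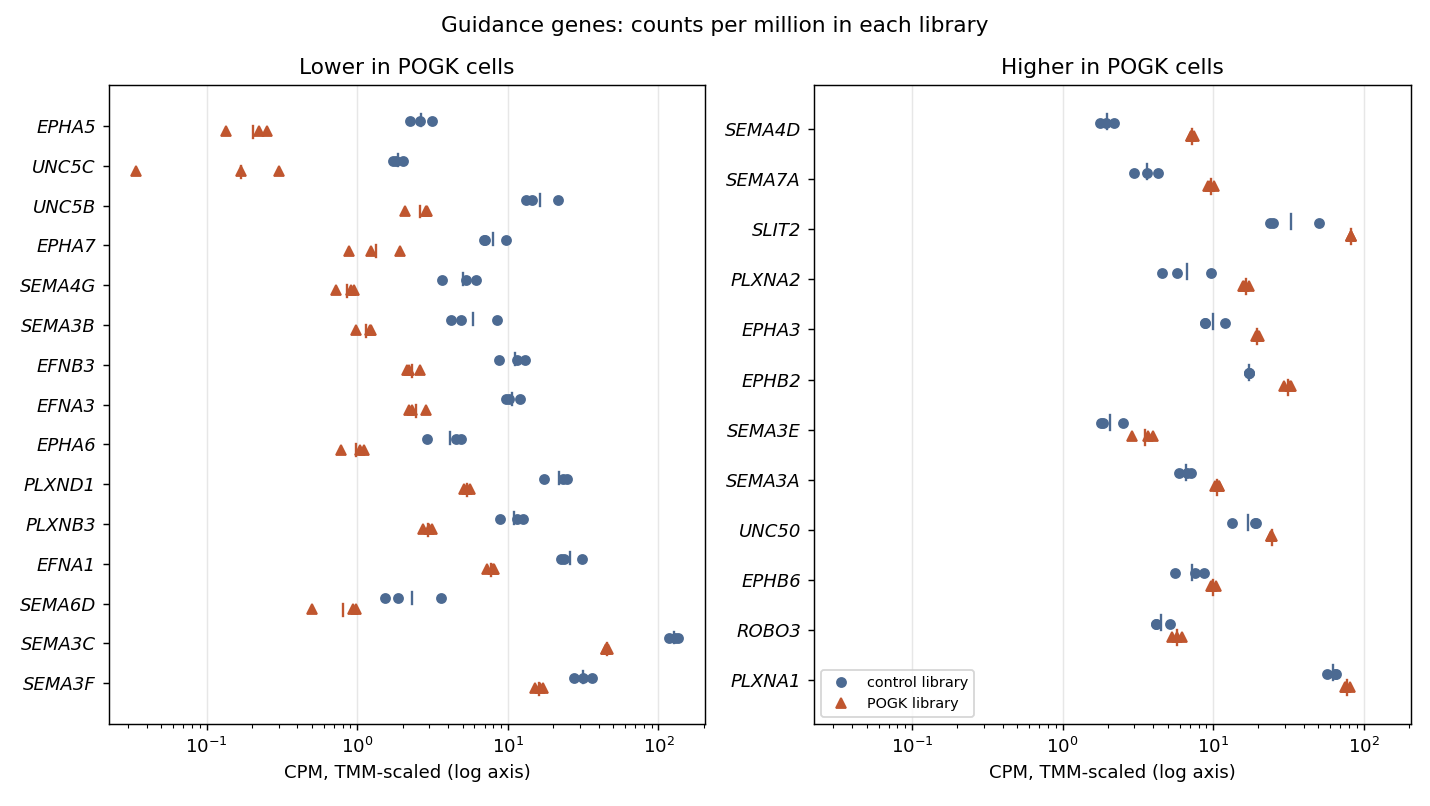
CPM in each library on a log axis for the 27 called genes whose mean reached 1 CPM and whose changes were largest, 15 lower (left) and 12 higher (right); circles are control libraries, triangles POGK libraries, and short vertical lines group means. The groups are separate for every gene shown, as SEMA3C at 117 to 135 CPM in control and 44.5 to 46.5 CPM in POGK libraries, and the control points of SLIT2 and PLXNA2 include 1 high library each.

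Of the 7 ephrin ligands in the table, 5 were lower, 2 did not pass and none was called higher on the TMM scale. All 4 ephrin-A genes in the table were called lower, EFNA4 only just and not in most alternatives, and 1 of 3 ephrin-B genes was. Of the ephrin-A genes, 3 stand side by side on chromosome 1, in the order EFNA4, EFNA3 and EFNA1, and all are read from the plus strand; 9284 bases separate EFNA4 from EFNA3 and 40338 bases EFNA3 from EFNA1. EFNA1 (ENSG00000169242; 155127876 to 155134899), a main ligand of EPHA2, was at 31.0, 22.6 and 23.6 CPM in control and at 7.94, 7.21 and 8.13 CPM in POGK libraries. All controls were well above all POGK libraries, and EFNA1 fell 3.31-fold (log2 -1.73, SE 0.14; adjusted p = 1.66e-05).

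EFNA3 (ENSG00000143590; 155078837 to 155087538) was at 12.0, 9.67 and 10.2 CPM in control and at 2.88, 2.32 and 2.19 CPM in POGK libraries. It fell 4.29-fold (log2 -2.10, SE 0.15; adjusted p = 1.10e-05). EFNA4 (ENSG00000243364; 155063737 to 155069553) was at 7.49, 6.77 and 8.22 CPM in control and at 6.46, 4.86 and 6.07 CPM in POGK libraries, so the groups nearly met. The fall of EFNA4, 1.29-fold, was only just called at an adjusted p of 0.0481, and 8 of the 13 alternatives did not call it, among them DESeq2 at 0.0576 and leaving out control replicate 1, control replicate 3 or any POGK replicate. An annotated read-through gene, EFNA4-EFNA3, shares 43.9% of the exon bases of EFNA3 and 15.04% of those of EFNA4, and how its reads were assigned is not known.

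The promoters of these neighbours were picked after the values were seen, since EFNA3 and EFNA1 fell several-fold while EFNA4 barely moved. Each is the 250 bases before the gene's start in RefSeq (GRCh38.p14, plus strand, written from the far end toward the start), at chr1:155063490-155063739 for EFNA4, chr1:155078587-155078836 for EFNA3 and chr1:155127626-155127875 for EFNA1. Capitals mark matches on either strand to ACGTG or GCGTG, the core that the hypoxia factors HIF1A and EPAS1 bind; EFNA1 and EFNA3 are known as hypoxia-responsive genes.
EFNA4: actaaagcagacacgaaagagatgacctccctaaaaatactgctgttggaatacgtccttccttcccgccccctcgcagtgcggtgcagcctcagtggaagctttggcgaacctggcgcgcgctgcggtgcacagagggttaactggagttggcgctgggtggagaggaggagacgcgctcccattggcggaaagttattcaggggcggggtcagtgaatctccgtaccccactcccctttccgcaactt
EFNA3: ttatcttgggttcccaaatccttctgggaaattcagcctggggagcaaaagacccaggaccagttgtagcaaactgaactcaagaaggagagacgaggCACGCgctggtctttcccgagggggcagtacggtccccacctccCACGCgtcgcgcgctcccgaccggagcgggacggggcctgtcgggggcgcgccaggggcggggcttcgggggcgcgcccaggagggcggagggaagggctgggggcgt
EFNA1: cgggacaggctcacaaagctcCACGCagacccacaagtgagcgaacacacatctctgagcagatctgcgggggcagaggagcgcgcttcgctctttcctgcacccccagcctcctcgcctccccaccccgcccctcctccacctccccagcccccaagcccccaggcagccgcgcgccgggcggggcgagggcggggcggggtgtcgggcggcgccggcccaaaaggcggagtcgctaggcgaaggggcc
EFNA3 held 2 matches to GCGTG, EFNA1 held 1 and EFNA4 none, and no window here held ACGTG. The motif GCGTG was in 31.9% of all 27305 RefSeq promoter windows of this length and in 44.7% of those of tested genes. Over the members with a promoter in the table, it was in 9 of 23 that were lower, 5 of 12 that were higher and 5 of 13 that did not pass. ACGTG was in 2 of 23, 2 of 12 and none of 13, beside 18.7% of all windows and 23.1% of those of tested genes. A match is a run of letters and not a shown binding site, and longer-range elements lie outside these windows. Whether hypoxia factors have a part in these falls was not tested.

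The remaining ephrins are EFNA5 and the ephrin-B genes. EFNA5, on chromosome 5, fell 1.52-fold from 26.4 ± 1.39 to 17.4 ± 0.33 CPM (SD, n = 3 each; adjusted p = 0.000291). EFNB3, a ligand known from the midline of the nervous system, was at 12.9, 8.78 and 11.5 CPM in control and at 2.21, 2.60 and 2.13 CPM in POGK libraries. EFNB3 fell 4.76-fold (log2 -2.25, SE 0.18; adjusted p = 1.51e-05), the largest fall of the ephrins. EFNB1, at 32.6, 26.7 and 30.0 CPM in control and 32.5, 32.2 and 31.6 CPM in POGK libraries, overlapped between the groups and did not pass (log2 0.11, SE 0.09; adjusted p = 0.317); with library size alone it was called higher, at a log2 fold change of 0.30 and an adjusted p of 0.0118. EFNB2, the ligand of EPHB4 in vessels, missed the threshold at a log2 fold change of -0.13 and an adjusted p of 0.183; 36.4% of its exon bases overlap an unnamed noncoding gene on the other strand.

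Of 6 EphA genes in the table, 5 fell and EPHA3 rose, while of 3 EphB genes there 2 rose, none fell and EPHB4 did not pass. EPHA2 (ENSG00000142627; chromosome 1, 16124337 to 16156069, minus strand), a receptor often raised in basal-like breast cancers, had the highest level per length of all 56 genes in both groups. It was at 160.2, 159 and 146 CPM in control and at 95.3, 95.8 and 96.0 CPM in POGK libraries. The POGK libraries were nearly identical and all lower, and EPHA2 fell 1.62-fold (log2 -0.70, SE 0.07; adjusted p = 3.51e-05).

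EPHA5, EPHA6 and EPHA7, receptors best known from the developing brain, had low levels and larger falls. EPHA5 had 78, 70 and 77 counts in control and 9, 8 and 4 counts in POGK libraries. The fall of 12.6-fold (log2 -3.66, SE 0.28; adjusted p = 1.31e-05) was the largest of all 52 genes and rests on those few POGK reads. EPHA6 was at 4.87, 2.90 and 4.51 CPM in control and at 1.03, 0.77 and 1.11 CPM in POGK libraries, a fall of 4.20-fold (adjusted p = 0.00012); a noncoding gene on the same strand shares 10.98% of its exon bases. EPHA7 fell 5.84-fold, from 7.04, 6.99 and 9.74 CPM in control to 1.23, 1.91 and 0.88 CPM in POGK libraries (log2 -2.55, SE 0.26; adjusted p = 5.11e-05). Both were lower in every POGK library than in any control library. EPHA4, which can bind ephrins of both classes, fell 1.42-fold from 17.8 ± 2.85 to 12.5 ± 1.18 CPM (SD, n = 3 each; adjusted p = 0.00905), a call lost with library size alone at 0.0896.

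EPHA3 and EPHB2 rose by similar amounts. EPHA3 was at 8.90, 12.0 and 8.89 CPM in control and at 20.04, 19.3 and 19.7 CPM in POGK libraries, a rise of 1.98-fold (log2 0.99, SE 0.13; adjusted p = 0.000199). EPHB2 was at 17.2, 17.4 and 17.3 CPM in control and at 32.2, 29.3 and 33.0 CPM in POGK libraries. The controls of EPHB2 were almost the same, and it rose 1.82-fold (log2 0.86, SE 0.08; adjusted p = 4.15e-05). EPHB6, a receptor without kinase activity, was at 7.53, 5.59 and 8.66 CPM in control and at 9.87, 9.62 and 10.5 CPM in POGK libraries. Its rise of 1.38-fold was called at an adjusted p of 0.0287 but at 0.0604 to 0.0860 when any 1 POGK library was left out. EPHB4, the most abundant EphB receptor, was at 66.5, 68.2 and 76.6 CPM in control and at 77.8, 73.5 and 72.5 CPM in POGK libraries, which overlapped (adjusted p = 0.358); with library size alone it was called higher, at a log2 fold change of 0.27 and an adjusted p of 0.0271.

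For a comparison between genes, CPM was divided by the kilobases of each gene's merged exons. On this scale the summed ephrin-A level was 27.9 ± 2.84 in control and 12.5 ± 0.94 in POGK cells (SD, n = 3 each), and the summed ephrin-B level 18.7 ± 1.45 and 16.2 ± 0.20. Ephrin-A genes therefore held 59.8 ± 0.62% of the ephrin total in control and 43.5 ± 2.07% in POGK cells. EFNA1 led the ephrins in control cells, at 11.9 ± 2.11 per kilobase, with EFNB1 next at 9.02 ± 0.90. The SD of EFNA1 is nearly as large as the gap, but EFNA1 was above EFNB1 in each control library. Their values there were 14.3 and 9.88, 10.4 and 8.09, and 10.9 and 9.10. In POGK cells EFNB1 led at 9.72 ± 0.13, followed by EFNB2 at 5.74 ± 0.07, and EFNA1, at 3.58 ± 0.22, stood behind EFNA4 at 4.61 ± 0.66. With the longest transcript as length that last order turned, EFNA1 taking 16.4% and EFNA4 15.2% of the ephrin total.

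On the same scale per kilobase, EphA receptors summed to 42.3 ± 1.59 in control and 27.9 ± 0.12 in POGK cells, and EphB receptors to 13.7 ± 1.06 and 16.0 ± 0.49 (SD, n = 3 each). EPHA2 alone took 66.9 ± 2.83% of the Eph total in control and 52.6 ± 0.90% in POGK cells, while EPHB4 took 19.6 ± 1.70% and 26.4 ± 0.69%. The level of EPHB4 itself was 10.9 ± 0.84 and 11.6 ± 0.44 per kilobase. The Eph total was 56.0 ± 0.54 and 43.9 ± 0.61. EPHA2 and EPHB4 remained first and second in both groups. These shares are sums over chosen genes and are given without a test.

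**Figure D3:**
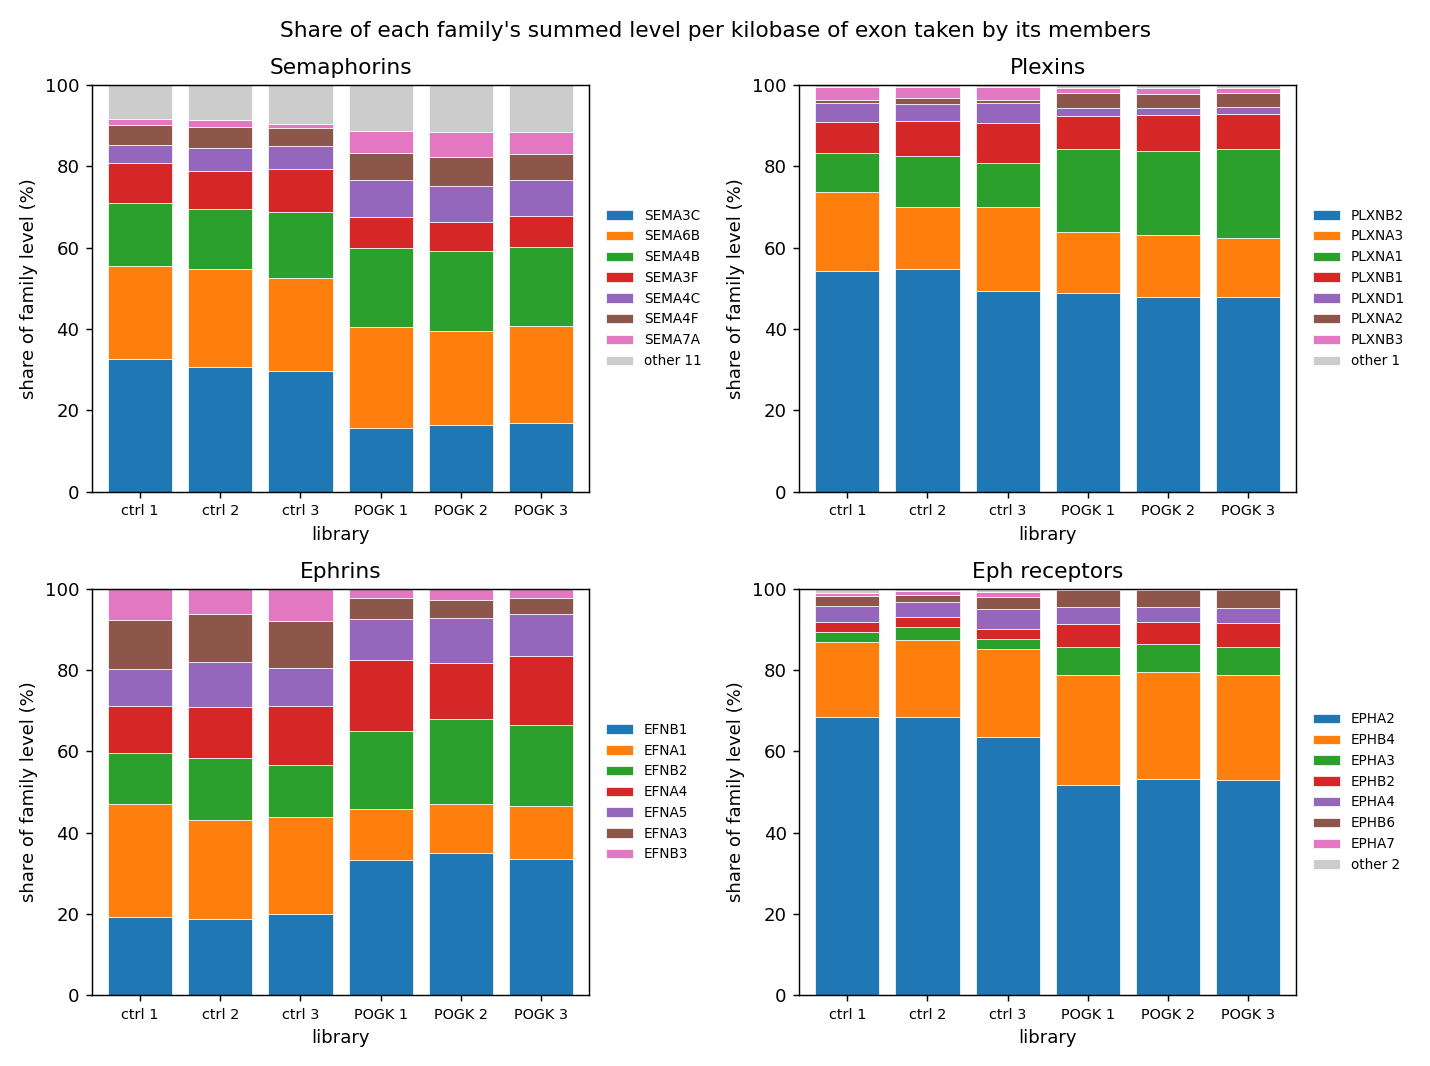
Share of each family's summed level per kilobase of exon taken by its members, as stacked bars for each of the 6 libraries (percent; ctrl, control; grey, all remaining members). SEMA3C shrinks from 31.0% on average in control to 16.3% in POGK libraries, EFNA1 from 25.3% to 12.5% and EPHA2 from 66.9% to 52.6%, while EFNB1 widens from 19.3% to 33.9% and PLXNA1 from 11.03% to 20.9%. The ephrin total itself went from 46.6 to 28.7 per kilobase and the plexin total from 50.6 to 32.9. On the TMM scale EFNB1 was not called and PLXNA1 rose 1.24-fold.

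Semaphorins and plexins were also lower in sum per kilobase. Semaphorins summed to 67.2 ± 4.56 in control and 45.5 ± 0.96 in POGK cells, and plexins to 50.6 ± 4.29 and 32.9 ± 0.39 (SD, n = 3 each). Class 3 semaphorins went from 44.2 ± 1.06% to 28.2 ± 0.66% of the semaphorin total, and class 4 from 27.6 ± 0.53% to 37.1 ± 0.46%. Class 3 itself summed to 29.7 ± 2.37 and 12.8 ± 0.23 per kilobase, and class 4 to 18.6 ± 1.58 and 16.9 ± 0.30. The class 4 share thus grew without a higher class 4 level. SEMA3C led the semaphorins in control cells at 20.8 ± 1.52 per kilobase, and SEMA6B led in POGK cells at 10.9 ± 0.63. With the longest transcript as length SEMA3C still led in control cells, but SEMA4B led in POGK cells, with 26.3% of the total against 20.4% for SEMA6B. PLXNB2 took 52.8 ± 2.97% of the plexin total in control and 48.2 ± 0.55% in POGK cells, and PLXNA1 11.03 ± 1.39% and 20.9 ± 0.90%. The level of PLXNA1 itself was 5.55 ± 0.38 and 6.87 ± 0.25 per kilobase.

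Of the 2 netrins in the table, NTN4 was the one with more than a few counts. NTN4, which binds laminin and is found in basement membranes, held nearly all netrin signal per kilobase, and was at 54.7, 59.8 and 64.4 CPM in control and at 65.6, 66.7 and 67.7 CPM in POGK libraries. The groups were just separate, but NTN4 did not pass (log2 0.16, SE 0.08; adjusted p = 0.0916) except with library size alone, at 0.0123, and without control replicate 3, at 0.0330. NTN5 had 2 to 11 counts per library and was not tested.

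Both tested UNC5 receptors fell. UNC5B, a netrin receptor of vessels that can trigger cell death when unbound, was at 13.2, 21.4 and 14.5 CPM in control and at 2.91, 2.07 and 2.87 CPM in POGK libraries. Control replicate 2 was highest, and even the lowest control was several times any POGK library. UNC5B fell 6.27-fold (log2 -2.65, SE 0.22; adjusted p = 1.92e-05). UNC5C had 50, 54 and 54 counts in control and 6, 11 and 1 counts in POGK libraries, a fall of 10.3-fold (log2 -3.36, SE 0.40; adjusted p = 0.000108). The size of that fall moved with the POGK libraries, from -2.94 without POGK replicate 3 to -4.06 without POGK replicate 2. UNC5D was at 2 to 7 counts per library and was not tested. The other netrin receptors come from the partner list: DCC had 3, 7 and 6 counts in control and 11, 16 and 12 counts in POGK libraries and was called higher (log2 1.03, SE 0.37; adjusted p = 0.0347), and NEO1, at 18.9 ± 2.05 and 18.2 ± 1.41 CPM (SD, n = 3 each), did not pass (adjusted p = 0.736).

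UNC5CL and UNC50, matched only by symbol, went in opposite directions. UNC5CL had 31, 32 and 46 counts in control and 23, 6 and 4 counts in POGK libraries, with POGK replicate 1 well above the others. Its log2 fold change was -1.97 (SE 0.47; adjusted p = 0.00531), and -3.03 without POGK replicate 1; 23.7% of its exon bases are shared with OARD1 on the same strand. UNC50, a Golgi membrane protein, was at 13.3, 18.9 and 19.3 CPM in control and at 24.3, 24.7 and 24.4 CPM in POGK libraries, and rose 1.42-fold (adjusted p = 0.00962). Its controls spread widely and its POGK libraries hardly at all.

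SLIT2, the only Slit gene with more than a few counts, rose. It is a secreted repellent that binds ROBO1 and ROBO2 and is often silenced in breast tumours. Its values were 23.7, 50.3 and 24.8 CPM in control and 82.6, 81.8 and 81.9 CPM in POGK libraries. Control replicate 2 was about midway between the other controls and the POGK libraries, which were alike. SLIT2 rose 2.48-fold (log2 1.31, SE 0.26; adjusted p = 0.00229), and its log2 fold change was 1.76 without control replicate 2. SLIT1 and SLIT3 had 1 to 10 counts per library and were not tested.

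Of the 4 Robo receptors, ROBO3 and ROBO4 were higher, ROBO2 was lower and ROBO1 did not pass. ROBO1 held 91.9 ± 1.26% of the Robo level per kilobase in control and 88.0 ± 0.50% in POGK cells. It was at 81.7, 89.3 and 101 CPM in control and at 81.8, 79.4 and 76.0 CPM in POGK libraries, so control replicate 1 lay inside the POGK range. ROBO1 did not pass (log2 -0.20, SE 0.09; adjusted p = 0.0673) but was called lower without control replicate 1, at 0.00902. ROBO2, with 4 to 30 counts per library, had a log2 fold change of -2.07 (SE 0.46; adjusted p = 0.00367).

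ROBO3 and ROBO4 lie 2220 bases apart on chromosome 11. ROBO3, known from axons that cross the midline, was at 4.19, 5.14 and 4.18 CPM in control and at 6.21, 5.75 and 5.36 CPM in POGK libraries. The rise of 1.28-fold was called at an adjusted p of 0.0459 and was lost when any library but control replicate 2 was left out (0.0706 to 0.162). It was also lost with DESeq2, at 0.0669, and with the replicate number as a block, at 0.0669. ROBO4, an endothelial receptor, had 1, 17 and 4 counts in control and 36, 36 and 22 counts in POGK libraries. Its log2 fold change was 1.84 (SE 0.54; adjusted p = 0.0139), 3.28 without control replicate 2, and not called without control replicate 3, at 0.0697. Noncoding genes on the other strand overlap 11.2% and 6.77% of its exon bases.

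Some ligand and receptor pairs known to act together are set side by side here; they were picked after the values were seen, and nothing is counted over them. SEMA4D rose while its receptor PLXNB1 fell, and SEMA3E rose while PLXND1 fell. SEMA7A rose while its receptor PLXNC1 did not pass the test, and SEMA6D fell while PLXNA1 rose. SEMA3A rose, as did PLXNA1, PLXNA2 and the coreceptor NRP1, and SEMA3F and PLXNA3 both fell while the coreceptor NRP2 rose. EFNA1 and its receptor EPHA2 both fell, and EFNB2 and its receptor EPHB4 did not pass, with log2 fold changes of -0.13 (SE 0.08) and 0.08 (SE 0.08). SLIT2 rose while ROBO1 did not pass and ROBO2, at 4 to 30 counts per library, fell.

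The coreceptors and signalling partners of these families come from a list of 97 genes, of which 85 were tested. Of these, 20 were higher (23.5%) and 34 lower (40.0%), beside 32.7% and 33.3% of all genes, with a median log2 fold change of -0.12. NRP1, the coreceptor of SEMA3A, was at 273 ± 23.2 CPM in control and 382 ± 1.91 CPM in POGK cells and rose 1.40-fold (SD, n = 3 each; adjusted p = 0.000613). NRP2, the coreceptor of SEMA3F and SEMA3C, rose 1.46-fold from 20.4 ± 2.86 to 29.7 ± 1.21 CPM (adjusted p = 0.0021). The coreceptor list as a whole had 5 of 13 tested genes higher (38.5%) and 6 lower (46.2%).

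Among the partners with the smallest adjusted p-values were L1CAM, ITGA1 and KDR on the lower side. L1CAM, an adhesion protein that joins NRP1 in the SEMA3A receptor, fell from 10.7 ± 3.52 to 0.65 ± 0.33 CPM. ITGA1, a collagen receptor chain that pairs with the SEMA7A-binding integrin chain ITGB1, fell 3.06-fold. KDR, the VEGF receptor that can join plexin complexes, fell from 15.7 ± 3.21 to 0.48 ± 0.11 CPM (SD, n = 3 each). All 3 had edgeR adjusted p-values at or below 2.5e-05.

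Inside the cell, mediators of plexin and neuropilin signals had 9 of 26 higher (34.6%) and 10 lower (38.5%). These shares are near the 32.7% and 33.3% of all genes. FARP2, an exchange factor for RAC1 activated by SEMA3A, rose from 32.1 ± 7.86 to 83.4 ± 1.44 CPM, while DPYSL2, the collapsin response mediator, fell from 424 ± 32.8 to 194 ± 2.66 CPM (SD, n = 3 each). RRAS, a GTPase that plexins inactivate, fell 2.80-fold. LIMK1 and its substrate CFL1, which control actin filament turnover, rose 1.58-fold and 1.54-fold. Effectors of Eph receptors had 4 of 23 higher (17.4%) and 10 lower (43.5%), and TIAM1, a RAC1 exchange factor, rose 2.07-fold from 20.5 ± 1.75 CPM. Effectors of Robo, DCC and UNC5 had 2 of 16 higher (12.5%), including PITPNA at 1.70-fold, and 6 lower (37.5%). Of RHOA, ROCK1 and ROCK2, 1 was lower and 2 did not pass. For the 4 tested ligands of related receptors, 1 was lower and none higher.

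In the authors' deposited table, 13 of the 56 genes were higher and 25 lower at an adjusted p below 0.05, beside 29.0% and 30.1% of all genes with an adjusted p there. The log2 fold changes for SEMA3C, EPHA2 and SLIT2 in the authors' deposited table were -1.48, -0.69 and 1.32.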

How the data were processed

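Ribosomal RNA was removed from total RNA and reads were aligned to hg38, per the labels' protocols. STAR, featureCounts, Trimmomatic, SAMtools and deepTools are named in the submitters' processing notes. Versions, annotation and strand setting: not given in the sources used here. Raw counts per gene were deposited by the authors, with no gene under 21 counts over the 6 libraries. The deposited table also holds a signal per library (counts over a size factor) and, per the file headers, a log2 fold change, a test score and p-values, which were used only where that table is named.

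Counts were tested with edgeR 4.0.16 (R 4.3.3): TMM scaling, the default filter on low counts, robust quasi-likelihood fits over all genes and Benjamini-Hochberg adjustment, with no covariate. Standard errors come from the F statistic. Positions, exon lengths and overlaps come from GENCODE release 44 (hg38), promoters from RefSeq, where 51 of 56 genes matched by symbol (not EFNB3, SEMA6B, UNC5B, UNC5D or SEMA3A). The scripts were tested on simulated data. The alternatives were DESeq2 1.42.0, limma-voom 3.58.1, other scalings and filters, the replicate block and each library left out.

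Genes and lists were chosen with earlier results of these data known. Values per library are given for called genes whose mean reached 1 CPM, up to the 15 largest changes in each direction, and for the member with the highest level per length in each family. Of the partner list, the 5 smallest adjusted p-values in each direction, NRP1 and NRP2 are named. DCC and NEO1, the other netrin receptors, are also named, chosen after their values were seen. OTK was counted as PTK7. No pair of libraries agreed within sampling noise: the chi-square statistic per gene was 1.36 to 2.62 between POGK and 22.5 to 49.7 between control libraries.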

Additional observations from a re-analysis of the deposited data

How the results depend on the processing

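Among 13 alternatives (DESeq2, limma-voom, size factors of the DESeq2 kind, no filter, at least 1 CPM in 3 libraries, library size alone, the replicate block and 6 fits leaving out a library), 31 of the 36 called genes tested in all of them kept direction and call, and no called gene reversed. The other 3 called genes, ROBO2, ROBO4 and UNC5CL, did not pass the filter of 1 CPM in 3 libraries. Counts ranged from 11 to 18 higher and 23 to 28 lower. Leaving out 1 library gave 11 to 13 higher and 24 to 28 lower, with a median log2 fold change of -0.45 to -0.32; over all genes it gave 4400 to 5686 higher and 4567 to 5587 lower. With library size alone the median was -0.16, 5 genes gained a higher call (EFNB1, EPHB4, NTN4, SEMA4C and SEMA5A), and 4 genes that were not called changed sign: EFNB2 at 0.065, SEMA3G at 0.025, SEMA4F at 0.12 and SEMA6C at 0.14. PLXNC1 and SEMA6C, also not called, ranged from -0.063 to 0.21 and from -0.11 to 0.075 when 1 library was left out. Same-numbered deviations from the group mean correlated at 0.13, 0.06 and -0.0021, and other-numbered ones at -0.13 to 0.07. With 3 libraries a group such deviations constrain one another, so a pairing by replicate number was neither shown nor excluded. With the replicate block 12 genes were higher and 26 lower, and only ROBO3, at 0.36, lost its call. With the longest transcript as length, a scale added after seeing the data, EPHA2 took 62.8% of the Eph total in control and 48.7% in POGK cells. Depth limits ROBO2, ROBO4, UNC5C, UNC5CL and EPHA5, with under 100 counts in every library. The same holds for SEMA3D, SEMA3G and SEMA4A, which were not called.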
